A study of Mus musculus with 18 samples.

Results

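Complement is a cascade of plasma proteins, most of them secreted by hepatocytes, that tags microbes and damaged cells for clearance. The classical arm starts at the C1 complex, the lectin arm at mannose-binding lectins, ficolins and collectins with their MASP proteases, and the alternative arm at C3 itself. All arms build convertases that cleave C3 and then C5, after which C6, C7, C8 and C9 assemble a pore in the target membrane, and a set of plasma and membrane regulators holds the cascade in check. Here 33 mouse complement genes, listed by symbol with earlier results of these data known, were followed through liver RNA sequencing counts of 52636 genes. All 33 were in the table. They comprised 4 genes of the C1 proteases, 7 of lectin recognition and its proteases, 7 convertase components, 7 terminal components, 6 regulators and 2 anaphylatoxin receptors.

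The 18 livers fell into 6 groups of 3, all harvested at zeitgeber time 8. H-KO and H-WT mice, 10 weeks old, came from a strain with the conditional Hnf4a allele (Hnf4atm1.1Gonz). BH-KO and BH-WT mice, also 10 weeks old, came from a strain that carries the conditional Arntl allele (Arntltm1Weit) as well as that of Hnf4a. BH-HF-KO and BH-HF-WT mice were of the BH strain and 45 weeks old, having been fed a high-fat diet since the age of 10 weeks (35 weeks in all). Every strain label, WT included, lists a tamoxifen-activated Cre (cre/ERT2) placed in the albumin gene, which acts in hepatocytes, and every mouse received tamoxifen (10 mg/mL in corn oil) on 5 days at 8 weeks of age. KO and WT animals of a setting share 1 strain label, and no source used here gives what distinguished the WT animals. Hnf4a encodes a nuclear receptor of hepatocytes and Arntl (Bmal1) an activator of the circadian clock.

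Total counts were 6846471 to 9816124 per library, so a count of 0 allowed up to 3 counts, or 0.306 to 0.438 CPM of the plain total, which covers counting error only. Levels below are CPM, each gene's counts scaled to a common library total with TMM factors. The targeted genes were counted over the whole gene, so their counts do not check the deletion of single exons. Hnf4a was at 565, 658 and 556 CPM in H-KO livers, against 802, 889 and 581 CPM in H-WT livers, and did not pass the test (log2 fold change -0.35 ± 0.21 SE, adjusted p = 0.208). It was at 867, 500.2 and 495 CPM in BH-KO livers, against 789, 889.6 and 772 CPM in BH-WT livers. Arntl was at 17.4, 22.3 and 24.1 CPM in BH-KO livers, against 0.421, 0.735 and 0.799 CPM in BH-WT livers, and rose (5.00 ± 0.43, adjusted p = 2.13e-06). At 45 weeks Arntl was at 0.885, 2.54 and 1.36 CPM in the livers labelled BH-HF-KO, against 1.03, 1.37 and 2.0 CPM in those labelled BH-HF-WT. The high-fat KO libraries did not carry the Arntl level of the 10-week BH-KO libraries. The library BH-KO replicate 1 stood apart, with correlations over genes of 0.911 to 0.912 with the other two BH-KO libraries and of 0.934 to 0.948 with the BH-WT libraries. H-WT replicate 3 had the female pattern, with Xist at 1084 CPM and Ddx3y at 5.74 CPM. Counts of called complement genes are given with and without these libraries, as are the genes whose call or value turned on them. Calls of cell type markers are those with all libraries unless stated. The 7 hepatocyte markers, whose sum is mostly Alb, summed to 20810 to 23500 CPM in H-KO livers and 87700 to 96500 CPM in H-WT livers. Of the 7, 4 fell, where 19.1% of all tested genes fell. Without H-WT replicate 3, 3 fell and Cps1 rose, with backgrounds of 15.8% and 12%. In BH-KO livers the 7 markers summed to 61960, 34250 and 25970 CPM, against 87140 to 114600 CPM in BH-WT livers. There Alb and Fah fell and Apoa1 rose, where 14.3% of all tested genes fell and 14.3% rose. Without BH-KO replicate 1 these calls held and Ttr fell as well, with backgrounds of 21.6% and 19.5%. In BH-HF-KO livers the sums were 52460 to 64850 CPM, against 93610 to 119000 CPM in BH-HF-WT livers, and none of the 7 passed. Of 5 cholangiocyte markers 3 rose in H-KO livers (sums of 110 to 171 CPM, against 32.96 to 57.9 CPM in H-WT livers), where 15.8% of all tested genes rose. In BH-KO livers Sox9 and Spp1 rose, where 14.3% of all tested genes rose, but the median log2 fold change of the 5 was -1.08. Their sums there were 103 to 340 CPM, against 39.6 to 76.5 CPM in BH-WT livers. Without BH-KO replicate 1, Sox9 and Spp1 rose and Krt19 and Krt7 fell, with backgrounds of 19.5% rising and 21.6% falling. Mitochondrial genes took 4.46% to 5.18% of counts in H-KO libraries, against 7.42% to 8.54% in H-WT libraries, and 9.45%, 3.70% and 4.17% in BH-KO libraries, against 7.20% to 7.66% in BH-WT libraries. The part of these in the complement values was not tested. Markers of adipocytes and of B and T cells summed to less than 7 CPM in every library.

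In the H-KO livers most complement genes were at lower levels than in the H-WT livers, and C3 was at a higher one. Of the 33 genes 29 had enough counts to be tested. Of these 18 fell, C3 rose and 10 did not pass (edgeR quasi-likelihood test, adjusted p under 0.05 over 13958 genes), where 19.1% of all tested genes fell and 15.8% rose. The median log2 fold change of the 29 was -1.13, against 0.00 over all tested genes. Without H-WT replicate 3, 19 fell and none rose, with backgrounds of 15.8% and 12%. The 18 that fell with all libraries also fell there, with log2 fold changes of -5.50 ± 1.30 for C9, -4.92 ± 1.07 for C8a and -4.54 ± 0.90 for Mbl2, down to -0.71 ± 0.15 for Cd59a. The call of C3 was lost (1.02 ± 0.43, adjusted p = 0.0889) and Cfd, which passed the filter on low counts in that fit, fell (-3.38 ± 1.13, adjusted p = 0.026).

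**Figure D1:**
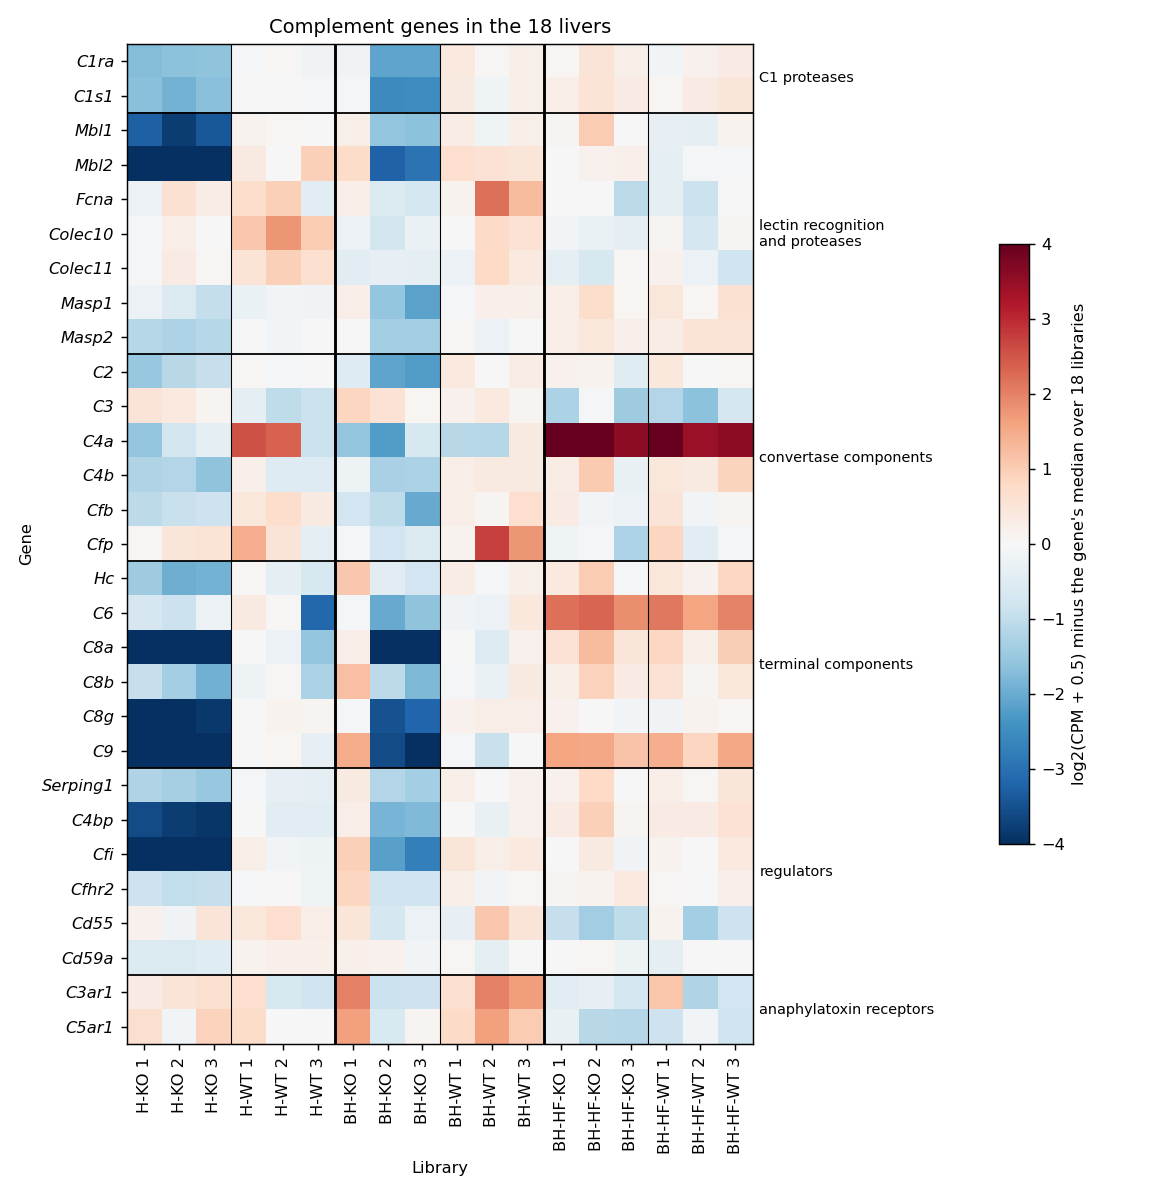
Heat map of the 29 tested complement genes (rows, by role) in 18 libraries (columns, KO left of WT in each setting). Colour is log2(CPM + 0.5) minus the gene's median over the libraries, held at 4 either way. The 3 H-KO libraries and BH-KO replicates 2 and 3 are blue through most rows, BH-KO replicate 1 is not, and C4a and C6 are red in all 6 high-fat libraries.

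In the BH-KO livers, with all libraries, 9 of the 29 fell (Cfp, C2, Fcna, Colec11, C1s1, Colec10, C1ra, C4b and Cfb) and none rose, where 14.3% of all tested genes fell and 14.3% rose. The median of all 29 was a log2 fold change of -0.89, against 0.03 over all tested genes. That count depended on single libraries. When BH-KO replicate 1 was left out, 23 of 30 tested complement genes fell and none rose, with backgrounds of 21.6% and 19.5%, and the median was -1.81. Of the 9, Colec11 was then lost, and the log2 fold changes of the others were -2.36 ± 0.16 for C1ra, -2.69 ± 0.18 for C1s1, -2.50 ± 0.24 for C2, -1.61 ± 0.32 for C4b, -2.41 ± 0.46 for Cfb, -2.65 ± 0.75 for Cfp, -2.19 ± 0.59 for Fcna and -0.99 ± 0.29 for Colec10. Leaving out BH-WT replicate 2 gave 4 genes, BH-KO replicate 2 gave 2, BH-KO replicate 3 gave 4 and BH-WT replicate 3 gave 5. With all libraries DESeq2 called 10 and limma-voom 14, while edgeR with the BH-KO and BH-WT libraries alone in the fit called 0. The shares of all tested genes called in these other fits are not given, so their counts have no background beside them. Of the 18 genes that fell in H-KO livers, 6 (33.3%) also fell in BH-KO livers, which is 66.7% of the BH list. After leaving out BH-KO replicate 1 it was 16, which is 88.9% of the H list and 69.6% of the BH list. C4a and Cd59a were then on the H list alone. The overlap over all tested genes was not counted, so these shares cannot be read as particular to complement genes.

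In the high-fat setting no complement gene passed between BH-HF-KO and BH-HF-WT livers, and neither did any gene of the table (0% by edgeR, with 490 genes at an unadjusted p under 0.05). None of the 29 reached an unadjusted p under 0.05, and DESeq2 and limma-voom also called none of them. Their median log2 fold change was 0.07. The 95% interval of C9 still reached from -2.02 to 2.26 on the log2 scale, so changes of that size were not detectable there, while that of Cd59a was -0.21 to 0.35.

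**Figure D2:**
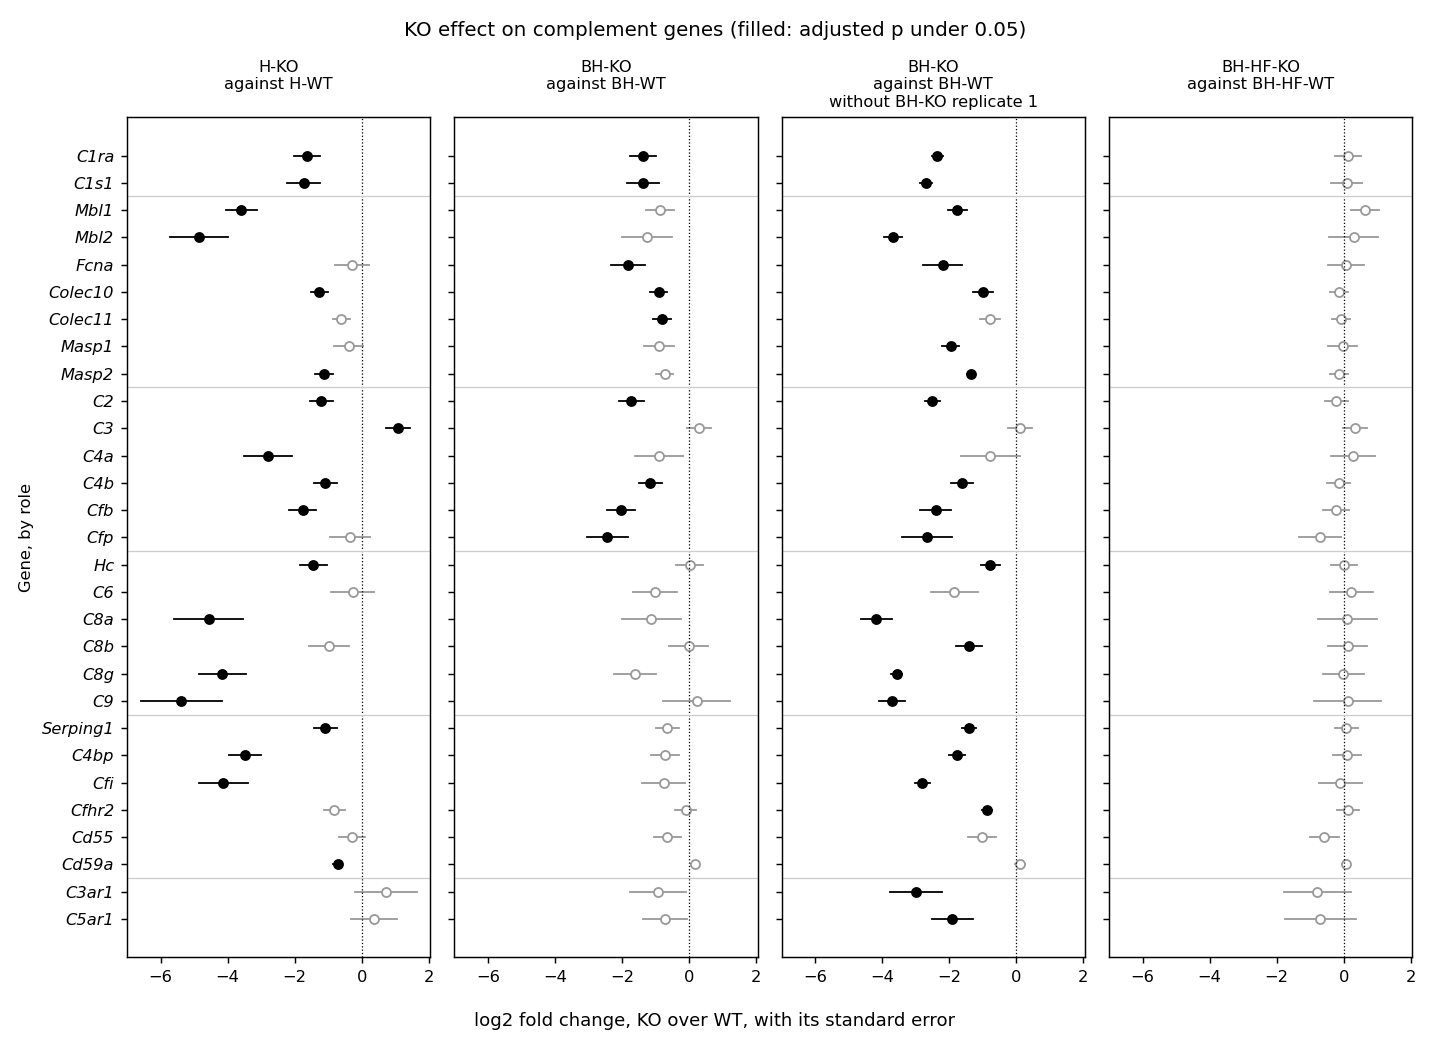
Log2 fold change of KO over WT with its standard error for the 29 genes, by role, in H livers, in BH livers, in BH livers without BH-KO replicate 1, and in high-fat BH livers. Filled points passed an adjusted p of 0.05. In the left panel C3 is the only filled point right of 0, the third panel has 23 filled points among those tested, and the right panel has none.

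The C1 proteases C1ra and C1s1, through which the C1 complex comes to cleave C4 and C2, fell in both strains with all libraries. C1ra was at 82.3, 89.0 and 89.8 CPM in H-KO livers, against 268, 288 and 249 CPM in H-WT livers (log2 fold change -1.63 ± 0.39 SE, adjusted p = 0.00503). In BH-KO livers it was at 249.7, 63.2 and 63.5 CPM, against 365, 284 and 327 CPM in BH-WT livers (-1.38 ± 0.39, adjusted p = 0.0169). Replicate 1 of BH-KO was close to the WT range while the other replicates were below every H-KO library. C1s1 showed the same order, with 116, 97.8 and 114 CPM in H-KO livers, against 374, 361 and 356 CPM in H-WT livers (-1.73 ± 0.48, adjusted p = 0.0121). It stood at 349, 62.4 and 65.2 CPM in BH-KO livers, against 471, 326 and 434 CPM in BH-WT livers (-1.37 ± 0.48, adjusted p = 0.0438). In the BH strain the call of C1ra held in 12 of 17 alternatives and that of C1s1 in 8 of 17. Without BH-WT replicate 2 the call of C1s1 was lost. In the high-fat setting C1ra was at 289.8, 392 and 322 CPM in BH-HF-KO livers, against 257, 313 and 343 CPM in BH-HF-WT livers, and C1s1 at 442, 542 and 463 CPM, against 390.5, 458 and 509 CPM. These groups overlapped. The log2 ratio of C1ra to C1s1 was -0.33 ± 0.18 in H-KO livers and -0.44 ± 0.10 in H-WT livers (SD, n = 3 each, exact permutation p = 0.5). In BH-KO livers it was -0.483, 0.020 and -0.038, against -0.368, -0.199 and -0.411 in BH-WT livers, so that BH-KO replicates 2 and 3 were above all other libraries. The neighbouring copies C1rb and C1s2 were not tested and did not exceed 0.143 and 0.245 CPM in any library. On chromosome 6 C1ra shares 50.8% of its 50-base stretches with C1rb, and C1s1 21.8% with C1s2, so reads of each pair could have been split or dropped by the counting.

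Among the lectins that recognise microbial sugars, the mannose-binding lectins Mbl1 and Mbl2 fell in H-KO livers. Mbl2 was at 13.2, 20.6 and 20.1 CPM in H-KO livers, against 468, 368 and 719 CPM in H-WT livers (log2 fold change -4.85 ± 0.87, adjusted p = 0.000893). Mbl1 was at 16.8, 11.6 and 15.5 CPM in H-KO livers, against 186, 178 and 167 CPM in H-WT livers (-3.60 ± 0.46, adjusted p = 8.97e-05). The groups were far apart for both genes. In the BH-KO livers Mbl2 was at 611, 38.2 and 47.2 CPM, against 581, 550.4 and 516 CPM in BH-WT livers, and Mbl1 at 195, 55.8 and 53.2 CPM, against 206, 149.7 and 197 CPM. Neither passed there with all libraries (Mbl2 adjusted p = 0.222, Mbl1 adjusted p = 0.13). Both fell once BH-KO replicate 1 was left out, with log2 fold changes of -3.68 ± 0.27 for Mbl2 and -1.76 ± 0.28 for Mbl1 (adjusted p = 3.17e-08 and 0.000184). At 45 weeks Mbl2 was at 365, 411 and 421 CPM in BH-HF-KO livers, against 279, 345 and 349 CPM in BH-HF-WT livers, and Mbl1 at 179.9, 341 and 168 CPM, against 133, 129 and 184 CPM.

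The collectins Colec10 and Colec11, which are known in liver mainly from stellate cells, were at lower levels. Colec10 was at 15.6, 19.7 and 16.5 CPM in H-KO livers, against 34.8, 56.0 and 33.5 CPM in H-WT livers (log2 fold change -1.27 ± 0.25, adjusted p = 0.0012). In BH-KO livers it was at 13.8, 9.41 and 13.4 CPM, against 15.9, 27.7 and 24.6 CPM in BH-WT livers (-0.90 ± 0.26, adjusted p = 0.0169), and here replicate 1 was not set apart. That call held in 12 of 17 alternatives and was lost without BH-WT replicate 2. The high-fat livers held 14.9, 13.2 and 12.6 CPM in BH-HF-KO and 17.3, 9.99 and 17.6 CPM in BH-HF-WT. Colec11 was at 16, 21.1 and 17.2 CPM in H-KO livers, against 24.2, 32.3 and 26.1 CPM in H-WT livers, without overlap but short of the threshold (-0.61 ± 0.26, adjusted p = 0.0785). It fell in BH-KO livers (-0.80 ± 0.27, adjusted p = 0.0344), where the 3 libraries held 12 to 12.9 CPM, though not without replicate 1 (-0.77 ± 0.30, adjusted p = 0.0513). Colec11 was not called without BH-WT replicate 2 either, and its call held in 7 of 17 alternatives. Of 7 stellate cell markers 2 fell in H-KO and 3 in BH-KO livers, where 19.1% and 14.3% of all tested genes fell. In BH-KO livers 2 fell without BH-KO replicate 1 (background 21.6%), and none of the 7 fell without BH-WT replicate 2. Their sum was 63.2 to 70.5 CPM in H-KO livers and 112 to 142 CPM in H-WT livers, and 69.9 to 77.2 CPM in BH-KO livers and 63.6 to 112 CPM in BH-WT livers. Their part in the collectin values was not tested.

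The MASP proteases cleave C4 and C2 once a lectin has bound. Masp2 was at 65.6, 61.5 and 64.6 CPM in H-KO livers, against 145, 133 and 142 CPM in H-WT livers (log2 fold change -1.13 ± 0.27, adjusted p = 0.00424). It stood in BH-KO livers at 143, 55.2 and 54.8 CPM, against 150.0, 121 and 146 CPM in BH-WT livers, and passed only without replicate 1 (-1.34 ± 0.12, adjusted p = 2.51e-07, against an adjusted p of 0.051 with it). The high-fat setting had it at 174, 197 and 167 CPM in BH-HF-KO livers, against 178, 208 and 207 CPM in BH-HF-WT livers. Its exons overlap those of Tardbp on the opposite strand over 54.9% of their length, and no source used here states the strand setting of the counting, so its counts are uncertain. Masp1 did not pass in H-KO livers, with 76.8, 60.3 and 45.9 CPM, against 75.0, 83.2 and 81.1 CPM in H-WT livers (-0.39 ± 0.44, adjusted p = 0.541). In BH-KO replicates 2 and 3 it was at 30.1 and 19.9 CPM, below every other library. It fell against BH-WT once replicate 1 was left out (-1.95 ± 0.25, adjusted p = 2.19e-05) and also against H-KO (-1.28 ± 0.24, adjusted p = 0.00293).

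C3, the protein on which all arms converge, was the exception to the lower levels. It was at 28295, 25651 and 21256 CPM in H-KO livers, against 14943, 9645 and 10924 CPM in H-WT livers, without overlap (log2 fold change 1.08 ± 0.37, adjusted p = 0.0313). In the BH strain the levels were 35685, 29483 and 20575 CPM in BH-KO livers, against 22001, 25992 and 21478 CPM in BH-WT livers, which overlapped (0.30 ± 0.36, adjusted p = 0.555). In the high-fat livers it was at 8181, 18861 and 7412 CPM in BH-HF-KO and 8650, 6368 and 12273 CPM in BH-HF-WT, again with overlap. Counted directly, C3 took 2.92% to 3.72% of all counts in H-KO libraries, where it was the gene with the most counts in each, and 0.914% to 1.42% in H-WT libraries, where it ranked 5 to 9. It made up 89.95% to 90.98% of the counts of all 33 genes in H-KO libraries and 53.0% to 59.4% in H-WT libraries. The other 32 together held 0.326% to 0.371% of all counts in H-KO libraries and 0.708% to 0.971% in H-WT libraries. The call of C3 was lost in 7 of 17 alternatives, among them those without H-KO replicate 1 or 2 and without H-WT replicate 2 or 3, with adjusted p values of 0.00518 to 0.112 over all 17.

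The C3 convertases of the classical and lectin arms are built from C4 and C2. C4b was at 650.0, 671 and 489 CPM in H-KO livers, against 1730, 1061 and 1056 CPM in H-WT livers (log2 fold change -1.09 ± 0.34, adjusted p = 0.0221). In BH-KO livers it was at 1304, 606 and 619 CPM, against 1793, 1911 and 1917 CPM in BH-WT livers (-1.15 ± 0.34, adjusted p = 0.021), so all 3 were below the WT range. The high-fat values were 1835, 3079 and 1231 CPM in BH-HF-KO and 2058, 1935 and 2806 CPM in BH-HF-WT. C2 was at 8.43, 11.3 and 13 CPM in H-KO livers, against 26.1, 23.6 and 25.6 CPM in H-WT livers (-1.20 ± 0.36, adjusted p = 0.017). It was at 17.5, 5.52 and 4.94 CPM in BH-KO livers, against 33.1, 24.8 and 31.2 CPM in BH-WT livers (-1.72 ± 0.36, adjusted p = 0.00365), and again no library overlapped. The high-fat values were 28.3, 27.8 and 17.7 CPM in BH-HF-KO livers, against 33.6, 25.7 and 26.5 CPM in BH-HF-WT livers. Cfb, the alternative arm's counterpart of C2, was at 1.0, 1.19 and 1.27 CPM in H-KO livers, against 3.72, 4.57 and 3.5 CPM in H-WT livers (-1.76 ± 0.40, adjusted p = 0.00297). It was at 1.34, 1.05 and 0.264 CPM in BH-KO livers, against 3.23, 2.82 and 4.48 CPM in BH-WT livers (-2.03 ± 0.42, adjusted p = 0.00266), and at 3.39, 2.40 and 2.15 CPM in BH-HF-KO livers, against 3.98, 2.37 and 2.86 CPM in BH-HF-WT livers. In GENCODE M21 (mm10) a further gene on the same strand of chromosome 17, Gm20547, covers 79.5% of the exon bases of Cfb and 42.8% of those of C2, so how reads were shared among the 3 is uncertain.

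C4a, the neighbour of C4b on chromosome 17, was low in some settings and high in others. In mouse it is known as the gene of the sex-limited protein, and GENCODE M21 annotates it as a processed transcript. It was at 7.13, 13.2 and 17.2 CPM in H-KO livers, against 132, 116 and 12 CPM in H-WT livers (log2 fold change -2.79 ± 0.72, adjusted p = 0.00875). The low H-WT value is that of replicate 3, the library with the female pattern. Without it the fall was -3.31 ± 0.52 (adjusted p = 0.000847), and with only the 2 H groups in the fit the call was lost (adjusted p = 0.0929). In the 10-week BH strain C4a was low in all livers, at 7.13, 4.28 and 14.2 CPM in BH-KO and 10.1, 9.68 and 28.6 CPM in BH-WT. In the high-fat livers it was at 383, 439.9 and 268 CPM in BH-HF-KO and 377, 246 and 270.4 CPM in BH-HF-WT, above every 10-week library. C4a shares 30.6% of its 50-base stretches with C4b, so its counts are uncertain where reads matched both.

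**Figure D3:**
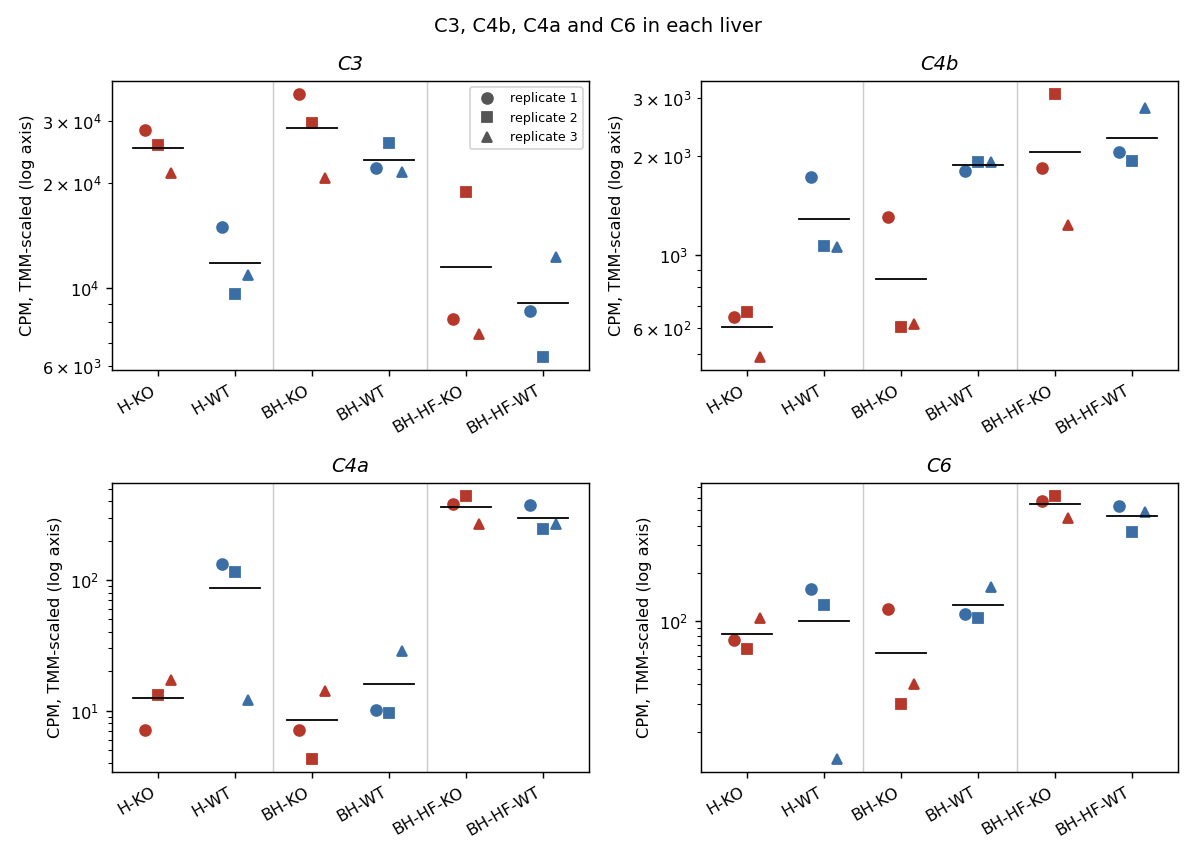
CPM (log axis) of C3, C4b, C4a and C6 in each library, KO in red and WT in blue, with a line at each group's mean. C3 in H-KO livers (21256 to 28295 CPM) is above H-WT, C4b is lower in H-KO than in H-WT, and C4a and C6 are highest in the high-fat livers and low in H-WT replicate 3.

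Of the terminal components, which form the membrane attack complex, 4 of the 6 tested fell in H-KO livers (19.1% of all tested genes) and none passed in BH-KO livers with all libraries, where 14.3% of all tested genes fell and a count of 0 among 6 is near the background. C9, the pore-forming protein, had the lowest log2 fold change of the 29 genes tested, within its error of that of Mbl2. It was at 9.03, 6.92 and 13.7 CPM in H-KO livers, against 440.1, 457 and 344 CPM in H-WT livers (log2 fold change -5.38 ± 1.22, adjusted p = 0.00394). In BH-KO livers it was at 1229, 36.4 and 18.8 CPM, against 421, 236 and 432 CPM in BH-WT livers (0.24 ± 1.0, adjusted p = 0.88). Replicate 1 was thus above every WT library of that age, while the other replicates were far below. Without it C9 fell in BH-KO livers (-3.72 ± 0.39, adjusted p = 3.38e-06). High-fat livers held 1291, 1285 and 953 CPM in BH-HF-KO and 1201, 783 and 1264 CPM in BH-HF-WT.

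C8 is a protein of 3 chains, alpha, beta and gamma, each from its own gene, and the genes did not change alike. C8a was at 28.3, 21.4 and 30.8 CPM in H-KO livers, against 871, 746 and 295 CPM in H-WT livers (log2 fold change -4.57 ± 1.02, adjusted p = 0.00373). C8g was at 15.5, 17.6 and 20.9 CPM in H-KO livers, against 304, 336 and 330.4 CPM in H-WT livers (-4.17 ± 0.70, adjusted p = 0.000602). C8b was at 180.2, 135 and 91.0 CPM in H-KO livers, against 298, 356 and 143 CPM in H-WT livers, which overlapped (-0.97 ± 0.59, adjusted p = 0.222). C8a and C8b lie next to each other on chromosome 4 (mm10) on opposite strands. The log2 ratio of C8a to C8b was -2.30 ± 0.64 in H-KO livers and 1.22 ± 0.29 in H-WT livers (SD, n = 3 each). That is a difference of -3.52, without overlap (exact permutation p = 0.1, two-sided, the smallest that 3 against 3 allows). In BH-KO libraries the ratio was 0.387, -2.02 and -0.994, against 1.40, 1.10 and 1.14 in BH-WT libraries. In the high-fat setting it was 1.62 ± 0.11 in BH-HF-KO livers and 1.63 ± 0.21 in BH-HF-WT livers (SD, n = 3 each, exact permutation p = 1). The ratio of C8a to C8g, by contrast, was 0.57 ± 0.30 in H-KO livers and 0.83 ± 0.89 in H-WT livers (SD, n = 3 each, exact permutation p = 0.7). In BH-KO livers C8a was at 1042, 41.1 and 49.7 CPM, against 870.0, 613 and 979 CPM in BH-WT livers, and C8g at 293, 27.0 and 33.9 CPM, against 346, 368 and 371 CPM. C8b stood there at 797, 167 and 99.0 CPM, against 330.4, 287 and 445 CPM in BH-WT livers. Without replicate 1 all of them fell in BH-KO livers, with log2 fold changes of -4.18 ± 0.46 for C8a, -3.57 ± 0.16 for C8g and -1.41 ± 0.39 for C8b. At 45 weeks the KO and WT ranges overlapped for each, C8a with 1297, 2084 and 1212 CPM in BH-HF-KO livers, against 1551, 1014 and 1710 CPM in BH-HF-WT livers. C8g was at 342, 309.8 and 283 CPM in BH-HF-KO livers, against 281, 339 and 322 CPM in BH-HF-WT livers.

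**Figure D4:**
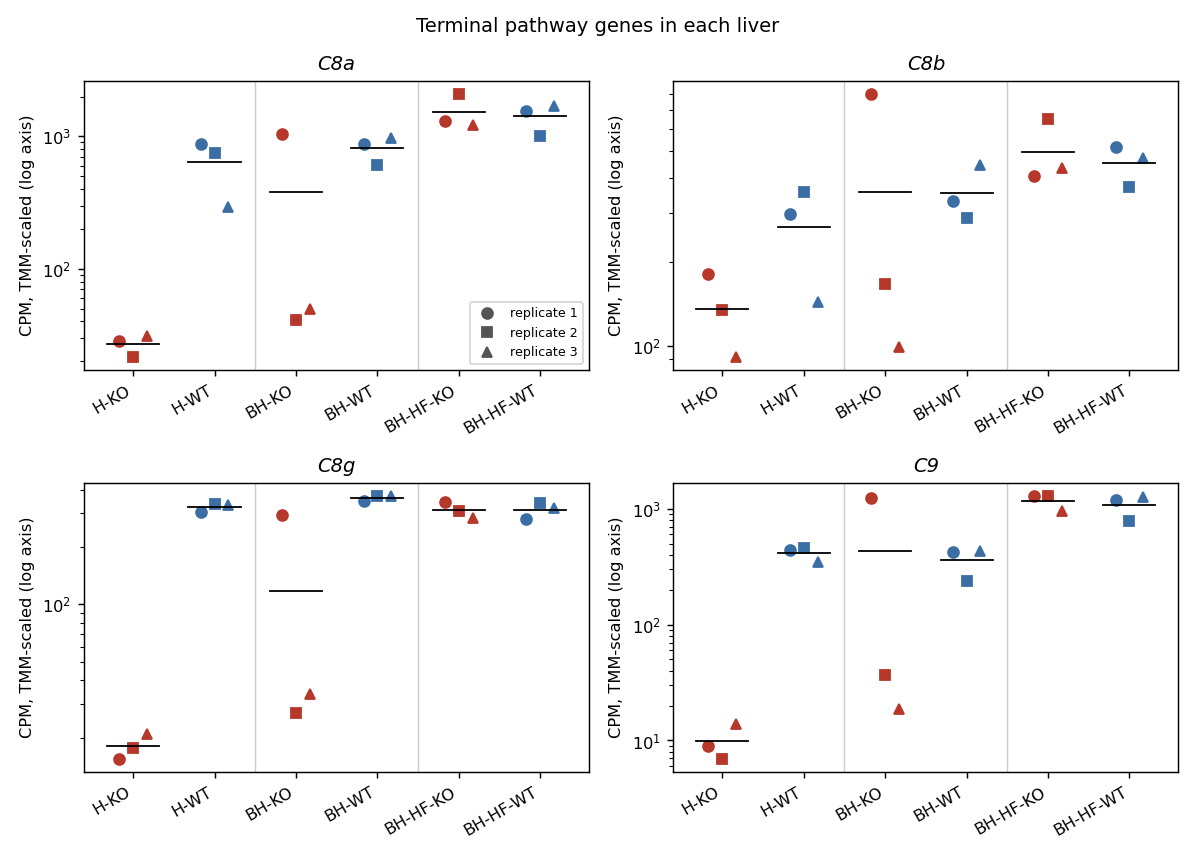
CPM (log axis) of C8a, C8b, C8g and C9 in each library, KO in red, WT in blue, with a line at each group's mean. In H-KO livers C8a, C8g and C9 lie between 6.92 and 30.8 CPM, C8b between 91.0 and 180.2 CPM, and BH-KO replicate 1 (circle) lies above the other BH-KO libraries in every panel.

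Because C8a and C8b are neighbours that changed unequally, C9 had the lowest fold change and C3 rose, the sequences just upstream of their start sites are shown. They are the 250 bases before the RefSeq start (GRCm38.p6, the assembly of mm10), read 5′ to 3′ on the gene's strand: C8a chr4:104876399-104876648 minus strand, C8b chr4:104766067-104766316 plus strand, C9 chr15:6445096-6445345 plus strand, and C3 chr17:57228137-57228386 minus strand. Capitals mark a match on either strand to GTTAAT, a part of the site known for HNF1, or to CAAAGNNCA, a form of the site known for HNF4A.
C8a: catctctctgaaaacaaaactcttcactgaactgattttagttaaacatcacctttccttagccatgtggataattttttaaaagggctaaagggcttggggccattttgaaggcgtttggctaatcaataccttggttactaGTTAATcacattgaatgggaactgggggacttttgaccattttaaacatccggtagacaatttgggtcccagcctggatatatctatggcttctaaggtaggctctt
C8b: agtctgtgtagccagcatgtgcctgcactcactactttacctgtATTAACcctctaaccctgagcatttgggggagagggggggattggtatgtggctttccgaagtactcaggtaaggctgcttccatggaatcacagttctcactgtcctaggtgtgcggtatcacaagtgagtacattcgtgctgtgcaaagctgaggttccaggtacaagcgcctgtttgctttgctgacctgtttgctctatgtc
C9: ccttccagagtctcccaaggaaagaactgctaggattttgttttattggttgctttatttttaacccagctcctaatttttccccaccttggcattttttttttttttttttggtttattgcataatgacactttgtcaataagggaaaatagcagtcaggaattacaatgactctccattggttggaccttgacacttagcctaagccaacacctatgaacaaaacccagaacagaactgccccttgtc
C3: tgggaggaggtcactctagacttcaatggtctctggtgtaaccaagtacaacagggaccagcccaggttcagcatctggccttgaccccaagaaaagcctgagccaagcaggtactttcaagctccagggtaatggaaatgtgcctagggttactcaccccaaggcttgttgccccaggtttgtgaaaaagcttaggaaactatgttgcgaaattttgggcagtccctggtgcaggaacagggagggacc
C8a and C8b hold 1 match to GTTAAT each, beginning 107 and 206 bases before the start, while C9 and C3 hold no match to either motif. RefSeq windows of 250 bases before to 50 after a start were at hand for 25 of the 33 genes, 27 windows in all. Only the 250 bases before the start were searched. With both strands searched, GTTAAT was in windows of 9 of the 25 genes (C4bp, Cfhr2, Hc, C8b, C8a, C1ra, C1s2, C7 and Cfp). That was 9 of the 27 windows, against 6.43% of 32851 windows of all genes. CAAAGNNCA was in windows of 3 (Cfhr2, C8g and C1s1), against 5.49% of all, and CACGTG, the E-box known for the clock activator pair of BMAL1 and CLOCK, in none, against 6.02% of all. TTNCNNAA, a loose form of the C/EBP site, was in windows of 12 genes (13 of the 27 windows), against 36.8% of all windows, and TATAAA in 3, against 12.4%. The motifs do not contain one another, and a match describes letters in the window and not binding.

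Hc, the mouse gene for C5, was at 513, 361 and 371 CPM in H-KO livers, against 1439, 1051 and 897 CPM in H-WT livers (log2 fold change -1.44 ± 0.40, adjusted p = 0.0115). It did not pass in BH-KO livers, at 2929, 1016 and 809 CPM, against 1694, 1336 and 1650 CPM in BH-WT livers (0.02 ± 0.40, adjusted p = 0.973), where replicate 1 was above and the others below the WT range. Without replicate 1 the fall was -0.77 ± 0.29 (adjusted p = 0.0433). The high-fat values were 1807, 2791 and 1338 CPM in BH-HF-KO livers, against 1890, 1556 and 2451 CPM in BH-HF-WT livers. C6 did not pass in either strain, with 76.3, 66.8 and 105 CPM in H-KO livers, against 158, 127 and 13.4 CPM in H-WT livers (-0.27 ± 0.64, adjusted p = 0.786). Replicate 3 of H-WT was the lowest of all 18 libraries. Without it the difference was -0.79 ± 0.44 (adjusted p = 0.2). In BH-KO livers C6 was at 119, 29.9 and 40.3 CPM, against 111, 104 and 164 CPM in BH-WT livers, and in the high-fat setting at 568, 616 and 446 CPM in BH-HF-KO livers, against 534, 364 and 489 CPM in BH-HF-WT livers. C7, which lies near C6 on chromosome 15, was not tested and stayed between 0 and 1.93 CPM.

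Among the regulators, Cfi and C4bp changed most. Cfi, factor I, cleaves C3b and C4b, and C4bp, the C4b-binding protein, is one of its cofactors. Cfi was at 55.3, 45.2 and 53.2 CPM in H-KO livers, against 1057, 839 and 787 CPM in H-WT livers (log2 fold change -4.13 ± 0.73, adjusted p = 0.000756). C4bp was at 51.8, 44.0 and 41.8 CPM in H-KO livers, against 617, 464 and 449.8 CPM in H-WT livers (-3.48 ± 0.47, adjusted p = 0.000105). In BH-KO livers Cfi was at 1752, 198 and 135 CPM, against 1252, 1067 and 1179 CPM in BH-WT livers, and C4bp at 754, 172 and 181 CPM, against 625, 500.4 and 693 CPM. Only replicate 1 was at or above the WT levels, and neither gene passed with it (Cfi adjusted p = 0.402, C4bp adjusted p = 0.219). Without it both fell, with log2 fold changes of -2.81 ± 0.22 for Cfi and -1.78 ± 0.24 for C4bp (adjusted p = 6.35e-08 and 2.11e-05). At 45 weeks Cfi was at 900.3, 1156 and 817 CPM in BH-HF-KO livers, against 1002, 902 and 1191 CPM in BH-HF-WT livers, and C4bp at 777, 1212 and 669 CPM, against 782, 772 and 925 CPM.

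Serping1, the C1 inhibitor, was at 412, 377 and 328 CPM in H-KO livers, against 894, 757 and 712 CPM in H-WT livers (log2 fold change -1.08 ± 0.35, adjusted p = 0.0251). In BH-KO livers it was at 1209, 417 and 363 CPM, against 1096, 961 and 1060 CPM in BH-WT livers, and it fell only without replicate 1 (-1.41 ± 0.22, adjusted p = 0.000103). The high-fat values were 1068, 1635 and 922 CPM in BH-HF-KO livers, against 1129, 969 and 1324 CPM in BH-HF-WT livers. Cd59a, the membrane protein that blocks insertion of C9, had a small change of low error. It was at 62.5, 61.8 and 66.5 CPM in H-KO livers, against 101, 106 and 105 CPM in H-WT livers (-0.71 ± 0.13, adjusted p = 0.000755), but at 107, 104 and 84.6 CPM in BH-KO livers, against 94.6, 72.2 and 94.2 CPM in BH-WT livers (0.18 ± 0.13, adjusted p = 0.319). Unlike the others, its BH-KO libraries lay close to each other, and without replicate 1 the value was 0.11 ± 0.14. Cfhr2 was at 321, 289 and 304 CPM in H-KO livers, against 539, 571 and 504 CPM in H-WT livers, just short of the threshold (-0.82 ± 0.32, adjusted p = 0.0569). In BH-KO livers Cfhr2 was at 1042, 331 and 331 CPM, against 679, 535 and 605 CPM in BH-WT livers. It fell there only without replicate 1 (-0.87 ± 0.14, adjusted p = 0.000122). Of its 50-base stretches 29.2% are shared with another gene, so its counts are uncertain. Cd55, decay-accelerating factor, ranged between 4.27 and 25.7 CPM over all libraries and passed in no comparison.

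Cfp (properdin, which stabilises the alternative convertase and is made by myeloid cells), Fcna (ficolin A, known in mouse from macrophages) and the receptors C3ar1 and C5ar1 are described together with the macrophage markers, since they are genes of myeloid cells. Cfp was at 8.32, 4.94 and 5.82 CPM in BH-KO livers, against 9.68, 61.0 and 30.9 CPM in BH-WT livers (log2 fold change -2.43 ± 0.61, adjusted p = 0.0106). Fcna was at 8.32, 4.47 and 3.97 CPM in BH-KO livers, against 7.58, 33.2 and 16.9 CPM in BH-WT livers (-1.82 ± 0.52, adjusted p = 0.0174). BH-WT replicate 2 was the highest library for both and BH-WT replicate 1 was close to or within the KO range. Beside them, 7 of 10 Kupffer cell and macrophage markers fell in BH-KO livers, where 14.3% of all tested genes fell, and none passed in H-KO livers (edgeR). The markers summed to 328, 53.6 and 68.7 CPM in BH-KO livers, against 254, 1184 and 702 CPM in BH-WT livers, with BH-WT replicate 2 again the highest. Without BH-WT replicate 2 neither Cfp (-1.69, adjusted p = 0.0568) nor Fcna (-1.16, adjusted p = 0.111) passed. Only 3 of the 10 markers (Clec4f, Cd5l and Csf1r) fell without that library. When BH-KO replicate 1 was left out instead, 9 of the 10 fell, where 21.6% of all tested genes fell. In the H strain, with marker sums of 141 to 226 CPM in H-KO livers and 64.3 to 498.5 CPM in H-WT livers, Cfp was at 8.93, 12.3 and 13.1 CPM in H-KO livers, against 24.5, 12.6 and 6.58 CPM in H-WT livers. Fcna was there at 5.62, 10.5 and 8.38 CPM in H-KO livers, against 11.3, 13.6 and 4.90 CPM in H-WT livers, and neither passed. At 45 weeks Cfp was at 7.67, 8.14 and 3.40 CPM in BH-HF-KO livers, against 16.3, 6.25 and 8.45 CPM in BH-HF-WT livers, and Fcna at 6.64, 6.67 and 2.95 CPM, against 5.00, 3.5 and 6.87 CPM. The part of the macrophage markers in these values was not tested, and in bulk liver fewer cells of a type and less RNA per cell cannot be told apart.

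**Figure D5:**
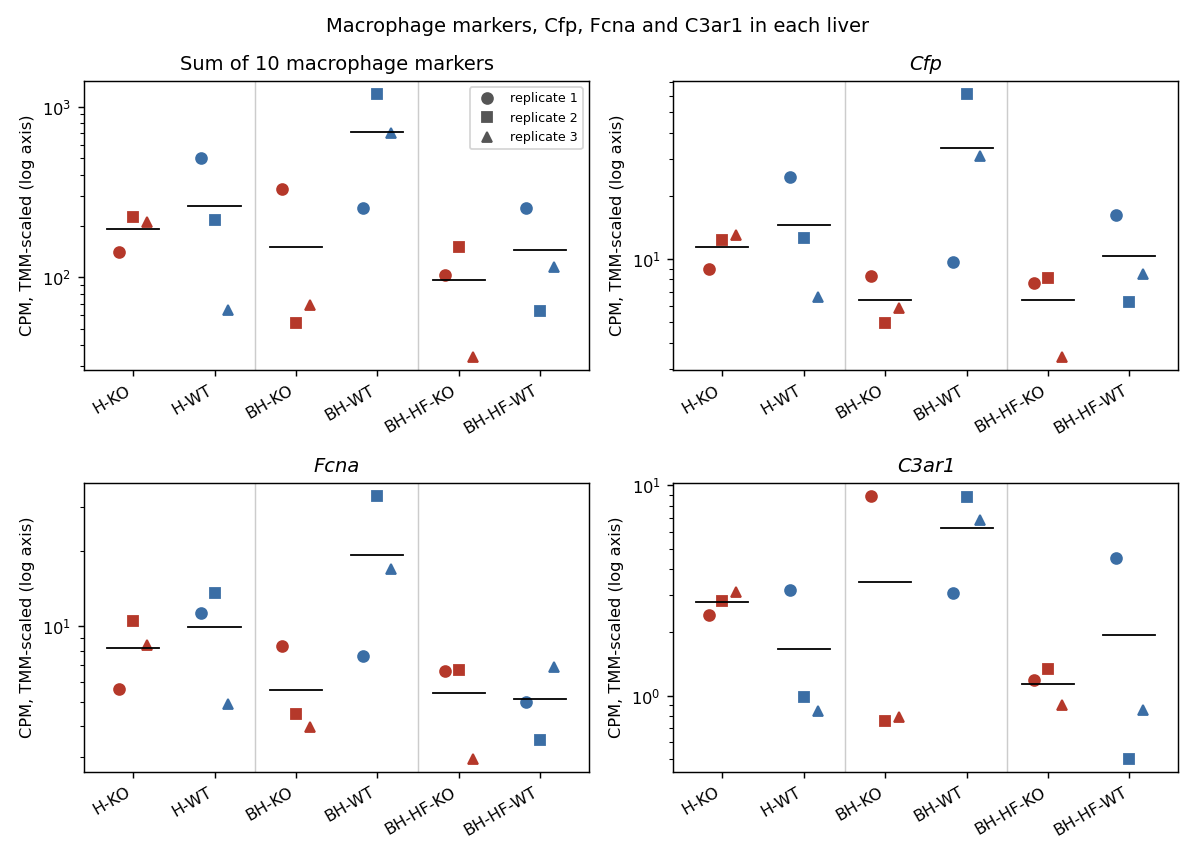
Summed CPM of 10 Kupffer cell and macrophage markers, and CPM of Cfp, Fcna and C3ar1, in each library (log axes, KO in red, WT in blue, a line at each group's mean). BH-WT replicate 2 (square) is highest in the marker sum, in Cfp and in Fcna, and in C3ar1 it is next to BH-KO replicate 1 at the top.

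The receptors for the fragments C3a and C5a were at low levels, up to 8.91 CPM. C3ar1 was at 2.41, 2.81 and 3.12 CPM in H-KO livers, against 3.19, 0.988 and 0.840 CPM in H-WT livers, and C5ar1 ranged between 0.113 and 3.71 CPM over all libraries. Neither passed in any comparison with all libraries. C3ar1 was at 8.91, 0.761 and 0.793 CPM in BH-KO livers, against 3.09, 8.82 and 6.87 CPM in BH-WT livers. With BH-KO replicate 1 left out it fell (-2.99 ± 0.77, adjusted p = 0.00592), as did C5ar1 (-1.91 ± 0.62, adjusted p = 0.0201). Cfd (adipsin, known mainly from fat cells) was not tested with all libraries and lay between 0 and 1.5 CPM, and the 5 adipocyte markers summed to at most 6.54 CPM. Lep was at 0 in every library, and Adipoq, Plin1 and Retn did not exceed 0.286, 0.429 and 0.143 CPM. The sum was thus mostly Cidec, which fell in H-KO and in BH-KO livers, and it says little of fat cells.

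Per kilobase of exon, C3 was the most abundant complement transcript of the H-WT livers at 2302 ± 538 CPM per kb (SD, n = 3). Mbl2 followed at 476 ± 166 CPM per kb, Cfi at 403 ± 64.7 and Serping1 at 339 ± 40.9. Mbl2 and Cfi, and likewise Cfi and Serping1, differed by less than the larger SD of the pair. C8a (175 ± 83.4 CPM per kb), Hc (180.2 ± 44.6) and C9 (162 ± 23.8) were alike within their spread, and C8b was at 104 ± 43.3 CPM per kb. Below 1 CPM per kb were Cfd, C5ar1, C3ar1, C7, C1s2 and C1rb.

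Of 27 further genes of the pathway, listed with earlier results known, 26 were in the table and 23 were tested. In H-KO livers 7 fell and 1 rose, where 19.1% of all tested genes fell and 15.8% rose. Among those that fell were Vtn (log2 fold change -3.38 ± 0.46, adjusted p = 9.4e-05), which encodes vitronectin, an inhibitor of the terminal complex, Cfhr3 (-4.35 ± 1.01), the carboxypeptidase N subunits Cpn2 (-2.30 ± 0.53) and Cpn1 (-0.57 ± 0.15), which trim C3a and C5a, the collectin Colec12 (-2.68 ± 0.57), and the inhibitor Susd4 (-2.73 ± 0.77). Clu, clusterin, another inhibitor of the terminal complex, rose (0.70 ± 0.23, adjusted p = 0.0269), with 2119, 2096 and 1791 CPM in H-KO livers, against 1213, 1179 and 1296 CPM in H-WT livers. Without H-WT replicate 3 its call was lost (0.74 ± 0.27, adjusted p = 0.0528), the 7 falls held, and Cd46, a membrane regulator, rose instead (1.02 ± 0.34, adjusted p = 0.0383). In BH-KO livers C1qa, C1qb, C1qc and Vsig4 fell, with log2 fold changes between -2.92 and -2.41, and none rose. These 4 of 23 are near the background of 14.3%. C1q is made by macrophages, and Vsig4 is itself on the macrophage marker list and is counted in the marker sum given above. The part of macrophages in these calls was not tested. C1qa was at 15.1, 5.14 and 5.46 CPM in BH-KO livers, against 17, 98.8 and 52.4 CPM in BH-WT livers, highest in BH-WT replicate 2 as the sum was, and none of the 4 passed without that library. When BH-KO replicate 1 was dropped, 14 of the 23 fell and C1qbp rose, with backgrounds of 21.6% and 19.5%.

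The KO effect was then compared between the strains by the difference of the log2 fold changes, BH minus H. It was positive for 5 complement genes and negative for none, where 3.76% of all tested genes were positive and 2.3% negative (edgeR, adjusted p under 0.05). The differences were 5.62 ± 1.52 for C9 (adjusted p = 0.0456), 3.38 ± 0.93 for Cfi (adjusted p = 0.047), 2.76 ± 0.62 for C4bp (adjusted p = 0.0185), 2.73 ± 0.60 for Mbl1 (adjusted p = 0.0185) and 0.89 ± 0.18 for Cd59a (adjusted p = 0.013). Without BH-KO replicate 1 all 5 were still called, but at 1.66 ± 0.45 for C9, 1.32 ± 0.26 for Cfi, 1.70 ± 0.30 for C4bp, 1.84 ± 0.36 for Mbl1 and 0.83 ± 0.19 for Cd59a. Mbl2 (1.17 ± 0.31) joined them, and 5 genes turned out negative, C1ra (-0.73 ± 0.20), C1s1 (-0.95 ± 0.21), C2 (-1.30 ± 0.30), Masp1 (-1.56 ± 0.32) and C3ar1 (-3.71 ± 0.997), with backgrounds of 4.93% positive and 3.72% negative. C4bp, for example, was at 172 and 181 CPM in BH-KO replicates 2 and 3 and at 41.8 to 51.8 CPM in H-KO livers. Without H-WT replicate 3 the call remained for C4bp (adjusted p = 0.0342), Mbl1 (adjusted p = 0.0361) and Cd59a (adjusted p = 0.0271), and was lost for C9 (adjusted p = 0.0731) and Cfi (adjusted p = 0.0777). Cd59a was the only one called without BH-WT replicate 2 (at 0.77), and the range of its adjusted p over 23 alternatives was 0.000715 to 0.0401.

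Set directly against H-KO livers, with which the comparison above shares its KO libraries, the BH-KO livers had higher levels of C8g, C9, Mbl2, C4bp, Hc, Cd59a, C8a, Mbl1 and Cfi and lower levels of none, where 10.1% of tested genes rose and 6.3% fell. The strain and the Arntl allele differ together here and cannot be told apart. Without BH-KO replicate 1 the rises of 8 of these held, C8a being lost (log2 fold change 0.76 ± 0.39, adjusted p = 0.208), and C1s1 (-0.77 ± 0.16), C2 (-1.06 ± 0.23) and Masp1 (-1.28 ± 0.24) fell, with backgrounds of 8.46% and 5.81%. The rises were then 1.95 ± 0.22 for C4bp, 1.90 ± 0.27 for Mbl1, 1.71 ± 0.20 for Cfi, 1.48 ± 0.35 for C9 and 1.14 ± 0.28 for Hc. C3 did not pass between the KO groups (0.19 ± 0.36 with all libraries, adjusted p = 0.757).

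The KO effect of the high-fat setting minus that of the 10-week BH setting passed for no complement gene with all libraries (edgeR, background 6.1%, 6 genes at an unadjusted p under 0.05), while DESeq2 and limma-voom each called 2. After BH-KO replicate 1 was left out it was positive for 17 and negative for none, where 12.2% of all tested genes were positive and 8.92% negative, and largest for C8a (4.28 ± 0.55), Mbl2 (3.99 ± 0.33), C9 (3.84 ± 0.47) and C8g (3.56 ± 0.20). Age, diet and the missing Arntl signal of the high-fat KO libraries differ together in this comparison and cannot be told apart.

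Between WT livers of the strains, BH-WT against H-WT, no complement gene passed (edgeR, background 0.165%, 3 genes at an unadjusted p under 0.05, 1 called by DESeq2 and none by limma-voom). The largest difference was that of C4a (log2 fold change -2.44 ± 0.72, adjusted p = 0.305). In BH-HF-WT livers against BH-WT livers, which differ in age and diet so that these cannot be told apart, C4a rose (4.22 ± 0.76, adjusted p = 0.00882) and C3 (-1.35 ± 0.37, adjusted p = 0.0398) and Fcna (-1.92 ± 0.52, adjusted p = 0.0408) fell, with backgrounds of 2.79% rising and 4.21% falling. None of the 3 passed without BH-WT replicate 2, C4a then standing at 3.95 (adjusted p = 0.0523), and the BH-HF-WT macrophage marker sum was 63.0 to 253 CPM, against 254 to 1184 CPM in BH-WT livers. C4a itself was at 246 to 377 CPM in BH-HF-WT livers and 9.68 to 28.6 CPM in BH-WT livers. C6 was higher without passing (1.87 ± 0.66, adjusted p = 0.0992), and its ranges, 364 to 534 CPM in BH-HF-WT livers and 104 to 164 CPM in BH-WT livers, did not overlap.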

How the data were processed

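Liver RNA was sequenced in bulk in 18 mice, and the table that the authors deposited holds raw read counts of 52636 genes. Reads were aligned to mm10 with STAR 2.6, per the submitters' processing notes, while no source used here names the counting tool or its strand setting. Of the genes, 13958 passed filterByExpr (minimum count 10). Counts were scaled by TMM and tested with edgeR 4.0.16 (R 4.3.3, robust quasi-likelihood F-test, 1 coefficient per group over all 18 libraries, 12 residual degrees of freedom), with Benjamini-Hochberg adjustment over all tested genes and a threshold of 0.05. The procedure was first tested on simulated data. DESeq2 1.42.0, limma 3.58.1, other scalings and filters, a sex covariate, a replicate block and leaving out each library were alternatives. The 8 comparisons were 3 of KO with WT, 2 differences of KO effects and 3 between settings. Values were given for the complement genes called with at least a doubling or halving in a KO comparison, and for others by role. The members and lists were chosen with earlier results of these data known. Gene lengths and coordinates came from GENCODE M21, promoter windows from RefSeq. Replicates are separate samples by their labels, so p-values measure the spread between these samples. Same-numbered KO and WT libraries were not paired (correlations of deviations -0.175 to 0.044). Some genes of the wider list are not reported here.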

Additional observations from a re-analysis of the deposited data

Results flagged for a closer look

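The KO effect differed between the BH and H strains, by an interaction term in edgeR, for 5 complement genes. As log2 fold change in BH minus that in H, with all libraries, the differences were 5.62 for C9, 3.38 for Cfi, 2.76 for C4bp, 2.73 for Mbl1 and 0.89 for Cd59a. Each was positive, meaning that the KO level relative to WT was higher in BH than in H. Without BH-KO replicate 1, the library that stood apart, they were 1.66 for C9, 1.32 for Cfi, 1.70 for C4bp, 1.84 for Mbl1 and 0.83 for Cd59a, each with an adjusted p under 0.05. Without H-WT replicate 3 the calls of C9 and Cfi were lost, and without BH-WT replicate 2 only Cd59a was called (at 0.77). Over 23 alternatives the call held in 22 for Cd59a, 19 for Mbl1, 17 for C4bp, 7 for C9 and 7 for Cfi.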

How the results depend on the processing

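The number of complement genes called was 16 to 19 in H-KO against H-WT livers when 1 library was left out (19 with all), 2 to 23 in BH-KO against BH-WT (9 with all), 1 to 11 for the difference of KO effects BH minus H (5), 0 to 17 for that of high-fat minus 10-week BH (0), 7 to 12 for BH-KO against H-KO (9), 0 to 4 for BH-HF-WT against BH-WT (3), and 0 to 0 for BH-HF-KO against BH-HF-WT and for BH-WT against H-WT (0 each). For BH-KO against BH-WT it was 4 with no filter, 14 with limma-voom, 0 with the groups of the comparison alone and 2 at an adjusted p under 0.01. The difference BH minus H gave 1 with no filter, 3 with limma-voom, 2 with the groups alone, 3 with sex as a covariate, 3 with the replicate block and 0 at 0.01. The high-fat difference gave 2 with the DESeq2 test and 2 with limma-voom, BH-KO against H-KO gave 3 with the groups alone, and BH-WT against H-WT gave 1 with the DESeq2 test. BH-HF-WT against BH-WT gave 1 with no filter, 6 with the DESeq2 test, 7 with the groups alone, 1 with the replicate block and 1 at 0.01. Leaving out BH-KO replicate 1 and H-WT replicate 3 together, an alternative chosen after seeing the data, gave 24 for BH-KO against BH-WT, 8 for BH minus H, 19 for the high-fat difference and 1 for BH-WT against H-WT. The causes were not tested. Shares of all tested genes called are given above for the fits with all libraries and for some without BH-KO replicate 1 or H-WT replicate 3. For the other alternatives they are not given, so those counts are not set against a background. The replicate numbers share no animal, litter or day in the labels, and the block moved no other count by over 1.5 times. Of 792 values of single genes under an alternative, 633 kept their call, 159 lost it and none changed sign. The calls of Mbl2, C4bp, Masp2, Cd59a, C8a, Mbl1, Colec10, C1ra and Cfb in H-KO livers held in all 17 alternatives. With 3 libraries a group, changes of genes near 1 CPM, such as C3ar1 and C5ar1, were measured with standard errors of up to 1.05 on the log2 scale.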
